A study of Mus musculus with 8 samples.

Results

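The 10 genes described here encode proteins that neutrophils make in bulk: the calgranulins S100a8 and S100a9, the granule proteins Camp, Ngp, Lcn2, Ltf, Mmp8, Pglyrp1 and Hp, and the resistin-like hormone gene Retnlg. The genes were selected on the measured values themselves, their scaled levels in earlier results of these arrays, which were higher in primary than in secondary recipients. That difference is therefore given below as a description, without a test. They are covered by 11 of the 41174 probes on the array, and all 10 were among the 22898 genes and unnamed probes tested. Testing required a probe that both arrays of some group had marked as well above background. Because the groups where a gene is bright decide whether it passes, that all 10 passed says nothing about them.

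The arrays measured donor-derived haematopoietic stem cells (HSC), sorted from recipient mice by flow cytometry, from wild-type (WT) donors or donors in which E47 was knocked out (KO). E47 is a basic helix-loop-helix transcription factor made from the Tcf3 gene, and it binds the short DNA motif called an E-box. Each genotype was taken from primary recipients and from secondary recipients, which gives 4 groups of 2 arrays, called WT primary, WT secondary, KO primary and KO secondary. The RNA of every sample was turned into cDNA and copied by a global PCR before labelling. The sources used here do not give the knockout allele, the mouse strains, the ages or the number of mice behind a sample. Whether 2 arrays of 1 group came from different cell samples is not settled by the labels. The p-values thus reflect the spread from array to array, which may be technical.

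Neutrophils arise from stem cells through myeloid progenitors, and they fill their granules in sequence as they mature. Azurophil granules, with myeloperoxidase and serine proteases, form first, at the promyelocyte stage. Specific and then gelatinase granules follow, and their genes, together with the calgranulins, are switched on by factors such as C/EBP-epsilon in late precursors, so these transcripts are usually counted as markers of maturing neutrophils and not of stem cells. In sorted bulk cells, fewer cells of a type and less RNA per cell cannot be told apart.

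The arrays differed in brightness. On replicate 2 of WT primary and replicate 2 of KO primary, called the dim arrays below, 41.9% and 35.4% of spots were well above background, and the 75th percentile of the processed signal was 36.6 and 19.6. On the other 6 arrays these ranged from 72.2% to 90.7% and from 321 to 847. Dim refers to these measures only, since some genes had their highest unscaled signals on the dim arrays. One slide carried all 4 WT arrays, and KO primary and KO secondary were on a further slide each. Genotype and slide cannot be told apart, while secondary against primary within WT is a comparison within 1 slide. Levels below are log2 of the processed signal minus the array's own 75th percentile, which raises every gene on a dim array, so the processed signal without any scaling is given first. Changes on the log2 scale are set against the median over every gene tested, which moved by -0.73 from primary to secondary recipients.

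The region before the start of a gene is where factors such as E47, PU.1 and the C/EBP proteins can bind, and it is shown for the 4 genes with the largest fitted difference between recipients. For Lcn2, not well above background on any secondary array, this place depends on the background correction: after normexp its difference was the sixth in size, at -5.94. These are the 250 bases upstream of the start in RefSeq (GRCm38.p6), 5′ to 3′ on the strand of the gene, with every E-box of the form CANNTG in capitals. S100a8 lies on the plus strand at chr3:90668821-90669070, Retnlg on the plus strand at chr16:48872358-48872607, S100a9 on the minus strand at chr3:90695722-90695971 and Lcn2 on the minus strand at chr2:32387740-32387989.
S100a8: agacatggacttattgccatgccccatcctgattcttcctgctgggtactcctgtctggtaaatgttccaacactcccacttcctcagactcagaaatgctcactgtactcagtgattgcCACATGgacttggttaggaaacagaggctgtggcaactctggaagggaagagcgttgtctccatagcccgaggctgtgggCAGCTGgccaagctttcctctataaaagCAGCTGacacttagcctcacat
Retnlg: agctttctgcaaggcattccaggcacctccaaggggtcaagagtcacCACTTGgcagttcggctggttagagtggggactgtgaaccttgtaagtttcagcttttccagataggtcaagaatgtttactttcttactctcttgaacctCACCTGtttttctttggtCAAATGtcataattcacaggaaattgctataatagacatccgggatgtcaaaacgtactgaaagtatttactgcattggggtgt
S100a9: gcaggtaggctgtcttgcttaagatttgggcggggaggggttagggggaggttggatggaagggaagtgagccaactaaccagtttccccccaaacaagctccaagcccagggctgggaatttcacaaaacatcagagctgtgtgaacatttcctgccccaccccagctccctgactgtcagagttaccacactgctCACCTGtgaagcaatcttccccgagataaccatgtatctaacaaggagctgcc
Lcn2: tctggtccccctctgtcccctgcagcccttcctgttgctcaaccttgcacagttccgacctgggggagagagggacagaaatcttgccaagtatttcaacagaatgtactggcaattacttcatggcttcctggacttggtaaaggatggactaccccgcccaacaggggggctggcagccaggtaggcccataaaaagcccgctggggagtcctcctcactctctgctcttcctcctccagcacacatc

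S100a8 held 3 E-boxes in this window, at -130, -50 and -22 from the start (first base of the match), and the last of these follows a run of TATAA at -30. The 2 nearest the start read CAGCTG. Retnlg also held 3, S100a9 held 1 and Lcn2 held none. Of the 10 genes 9 had an entry among the 32851 promoters of the table. CANNTG was found on either strand in 6 of the 9, against 66.2% of all promoters. CAGCTG, which is one form of CANNTG, was found in 1 of the 9, against 4271 of the 32851. GAGGAA, the core letters bound by PU.1, was found in 5 of the 9, against 23.3%, and TTGCNNA, a core of the C/EBP site, in 7 of the 9, against 32.8%. Lcn2 had 3 such matches, at -216, -206 and -167. These are matches of letters in a short window and not measured binding.

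The probes decide what each value counts. The first 30 of the 60 bases of the probes for the same 4 genes are shown, so that each signal below can be tied to the transcript it counts.
S100a8: cttgttcagagaattggacatcaatagtga
Retnlg: gctgagaacctagctttgaaatgaagacta
S100a9: ctgcccaaccaagtctaaagggaatggctt
Lcn2: ggtatttttccgaaagacttctgaaaacaa

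In the build of the files, mm8, these probes lie at chr3:90755783-90755842 (S100a8), chr16:48793981-48794040 (Retnlg), chr3:90778590-90778649 (S100a9) and chr2:32207526-32207770 (Lcn2, an interval longer than the probe). The longest run of bases shared by any 2 of the 11 probes, over 55 pairs, was 9. The GC content of the 11 probes was 35.0% to 55.0% with a median of 45.0%, and the 5th and 95th percentiles over all probes were 31.7% and 55.0%. S100a8 and S100a9 had 0 protein-coding genes between them in the RefSeq gene table, and their probes start 22.8 kb apart. Camp (chr9:109704884-109704943), Ngp (chr9:110266929-110267477) and Ltf (chr9:110880576-110883626) lie within 1.18 Mb of chromosome 9, which also carries Mmp8 (chr9:7568238-7568297). The Hp probe lies at chr8:112464401-112464460 and the Pglyrp1 probe at chr7:18048832-18048891.

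S100a8 and S100a9 encode the 2 chains of calprotectin, a calcium-binding and zinc-chelating protein that makes up much of the neutrophil cytosol. The processed signal of S100a8 was 10769 and 70779 in WT primary, 11107 and 62443 in KO primary, 2.38 and 2.78 in WT secondary, and 80.5 and 2.05 in KO secondary. It was well above background on every primary array and on 1 secondary array, KO secondary replicate 1, and the lowest primary signal lay far above the highest secondary one. The signal of S100a9 was 16911 and 76421 in WT primary, 2193 and 67527 in KO primary, 17.1 and 14.4 in WT secondary, and 35.8 and 41.8 in KO secondary. All 8 arrays were above background for S100a9, and primary and secondary recipients did not overlap. Secondary against primary over both genotypes, the log2 change was -14.23 (SE 1.95) for S100a8 and -11.77 (SE 2.04) for S100a9. No WT secondary array measured S100a8, so its primary mean was set against a floor, on scaled log2 levels. The floor is the lowest signal well above background on each secondary array, or the probe's own signal where higher. Taken as the limit, it puts S100a8 at least 18971-fold higher in WT primary recipients on scaled levels. That was at least 2499-fold without the dim array, WT primary replicate 2, or 144034-fold without replicate 1. These folds depend on the scaling, by a 75th percentile of 36.6 on the dim array and of 847 and 729 on WT secondary. Before scaling, the signals of 10769 and 70779 stood against floors of 9.59 and 11.6.

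Retnlg encodes a resistin-like secreted protein found in myeloid cells of the bone marrow. Its signal was 17267 and 49844 in WT primary, 13919 and 38038 in KO primary, 9.60 and 2.81 in WT secondary, and 24.5 and 453 in KO secondary. In secondary recipients both KO arrays lay above both WT arrays, and neither WT array was well above background. By this measure 46.2% of all genes did not overlap between genotypes there, in either direction. Both secondary groups lay below every primary array. The log2 change from primary to secondary was -12.15 (SE 1.75). By the same floor, in WT and on scaled levels, Retnlg was at least 20152-fold higher in primary recipients. It was at least 4005-fold higher without the dim WT array and 101394-fold without the other. On WT secondary replicate 1 the Retnlg signal of 9.596 was not marked, though the lowest marked signal was 9.589. The floor is thus not a strict limit.

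**Figure D1:**
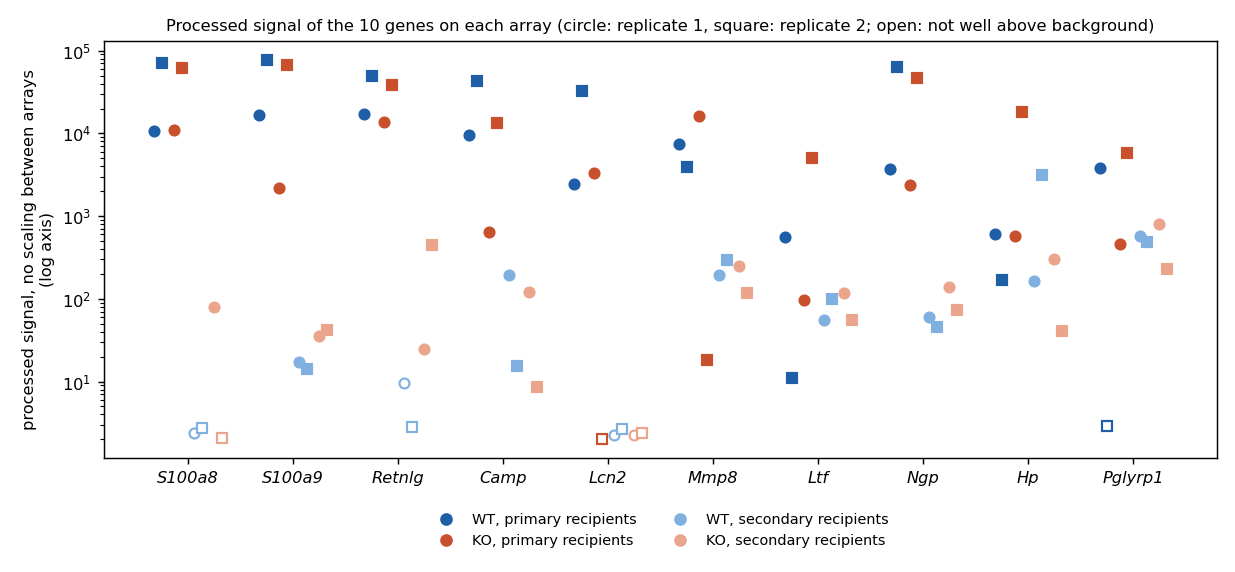
Processed signal (log axis, no scaling between arrays) of the 10 genes on each of the 8 arrays, coloured by group, with open symbols where the probe was not well above background. For S100a8, S100a9, Retnlg, Camp and Ngp every primary array lies above every secondary array, while Lcn2, Mmp8, Ltf and Pglyrp1 each have a dim primary array at or below the secondary ones.

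Camp and Ngp are cathelin-domain genes of specific granules. Camp encodes the precursor of the antimicrobial peptide CRAMP, and its signal was 9507 and 42835 in WT primary, 638 and 13192 in KO primary, 195 and 15.4 in WT secondary, and 120.0 and 8.62 in KO secondary. Ngp, neutrophilic granule protein, gave 3736 and 64230 in WT primary, 2363 and 46457 in KO primary, 60.0 and 45.8 in WT secondary, and 138 and 73.3 in KO secondary. Both genes were above background on all 8 arrays, and for both the lowest primary array exceeded the highest secondary array. Their log2 changes were -9.55 (SE 2.13) for Camp and -9.49 (SE 2.14) for Ngp.

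Lcn2, Mmp8 and Ltf depended on the scaling. Lcn2 encodes lipocalin-2, which starves bacteria of iron by binding siderophores. Its signal was 2471 and 32379 in WT primary, 3362 and 1.997 in KO primary, and between 2.23 and 2.69 on the 4 secondary arrays. It was therefore above background on 3 primary arrays and on neither array of either secondary group, and on the dim KO array it has no order against the secondary ones. In WT, by the same floor and on scaled levels, Lcn2 was at least 6147-fold higher in primary recipients. It was at least 573-fold higher without the dim WT array and 65890-fold without the other. In KO, 1 of the 2 primary arrays measured it, and no bound is given. Its log2 change over both genotypes was -10.52 (SE 1.85).

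Mmp8 encodes neutrophil collagenase. Its signal was 7427 and 3955 in WT primary, 16229 and 18.4 in KO primary, 195 and 291 in WT secondary, and 248 and 118 in KO secondary. The dim KO array was thus lowest of all 8 before scaling, although its scaled level, -0.10, exceeded the secondary levels of -2.12 to -1.32. The log2 change was -5.13 (SE 1.28).

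Ltf encodes lactoferrin, an iron-binding protein of specific granules, and was the gene with more than 1 probe. Its main probe gave 564 and 10.9 in WT primary, 97.7 and 5030 in KO primary, 56.1 and 98.4 in WT secondary, and 117 and 55.1 in KO secondary. Primary and secondary signals overlapped before scaling, while scaled levels of -1.87 to 8.002 in primary lay above those of -3.91 to -2.50 in secondary recipients. The other probe was brightest on the same array, KO primary replicate 2, at a scaled level of 10.79. The log2 change of the main probe was -3.64 (SE 1.98), and it was -1.29 without KO primary replicate 2 and -6.04 without KO primary replicate 1.

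Hp and Pglyrp1 overlapped between recipients on either scale. Hp encodes haptoglobin, a haemoglobin-binding plasma protein that maturing neutrophils also store. Its signal was 607 and 171 in WT primary, 572 and 18103 in KO primary, 165 and 3158 in WT secondary, and 307 and 40.9 in KO secondary. One secondary array, WT replicate 2, was brighter than 3 of the 4 primary arrays, and KO primary replicate 2 stood above all others. Pglyrp1 encodes a peptidoglycan recognition protein of specific granules, with signals of 3775 and 2.94 in WT primary, 466 and 5772 in KO primary, 576 and 487 in WT secondary, and 798 and 227 in KO secondary. It was above background on 7 arrays, the exception being WT primary replicate 2, where its scaled level was the lowest of all 8. The log2 change of Hp was -3.88 (SE 2.03), with -1.70 without KO primary replicate 2 and -6.10 without KO primary replicate 1. That of Pglyrp1 was -1.85 (SE 2.06), and leaving out 1 array at a time moved it between -3.75 (without WT primary replicate 2) and 0.01 (without WT primary replicate 1).

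**Figure D2:**
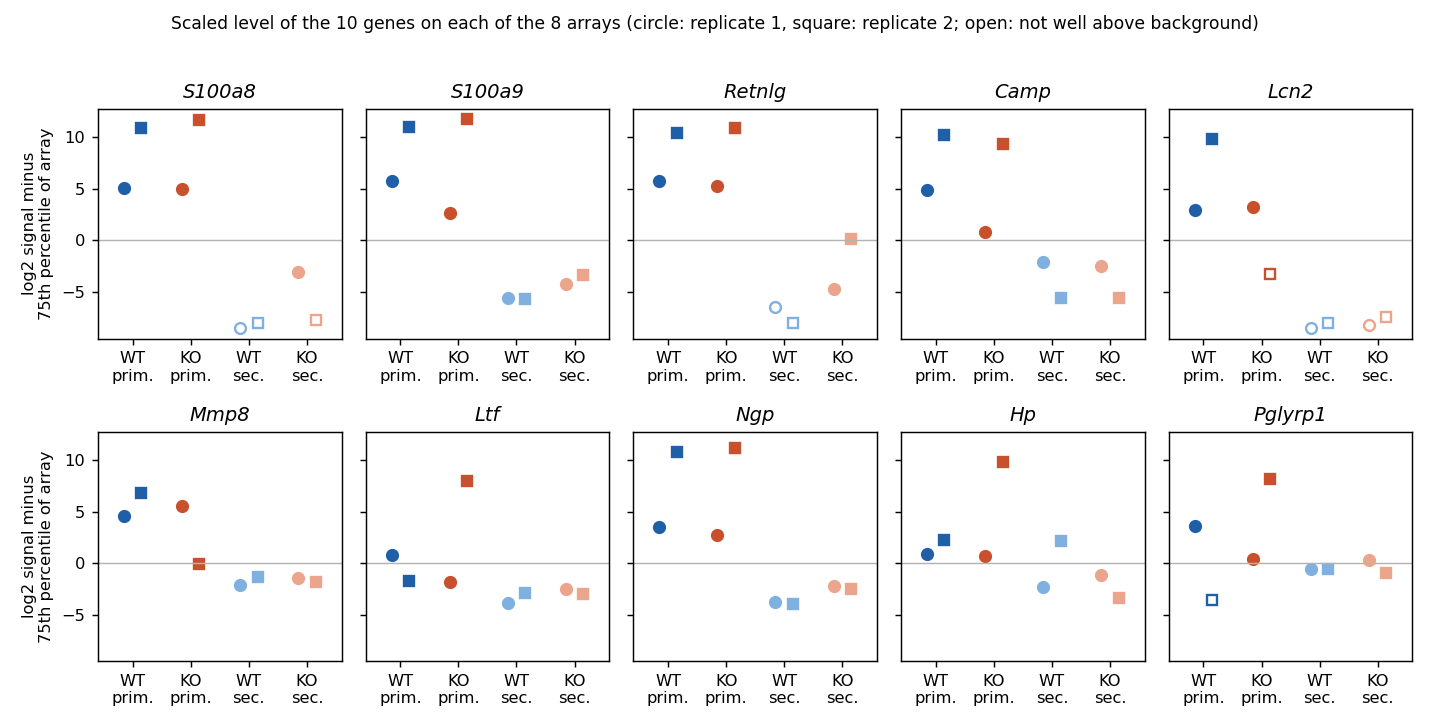
Scaled level (log2 processed signal minus the array's 75th percentile) of each of the 10 genes, by group, with circles for replicate 1, squares for replicate 2 and open symbols where the probe was not well above background. S100a8, S100a9, Retnlg, Camp, Lcn2, Mmp8, Ltf and Ngp have all 4 primary arrays above all 4 secondary arrays, for Lcn2 with 1 primary array not well above background, and Hp and Pglyrp1 do not.

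On scaled levels, the 4 primary arrays lay above the 4 secondary arrays for 8 of the 10 genes, as they did for 12.7% of all genes tested. This order is the one the genes were chosen for, and nothing is read from its share. Counted only where every primary array was well above background, which leaves out Lcn2, it held for 7 (10.5% of all genes). With the 75th percentile taken over probes well above background on all arrays it held for 6 (3.9% of all genes), without Mmp8 and Ltf. On processed signals with no scaling it held for 5, S100a8, S100a9, Retnlg, Camp and Ngp, where 7 of all genes tested, or 0.0306%, had it. The 2 other genes of those 7 were Mpo, which encodes the azurophil enzyme myeloperoxidase, and Mt1, which encodes a metallothionein. Both were named after their values were seen. On scaled levels the reverse order, all primary below all secondary, held for 3.16% of all genes and for 0 of the 10. With no scaling, 2790 genes (12.2%) had all primary arrays below all secondary arrays, and none of the 10 genes was among them.

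The 10 genes had a median log2 change of -9.52 between secondary and primary recipients, and none lay above the median gene. The 5th and 95th percentiles over all genes tested were -1.86 and 3.52. Pglyrp1, at -1.85, was the member within that range. The median was -6.26 without both dim arrays and -6.43 after normexp background correction. Within WT, on 1 slide, the median was -10.23, and 9 of the 10 lay below the median gene, from -15.25 for S100a8 to 0.46 for Pglyrp1. Within KO, where recipient and slide cannot be told apart, the median was -7.97 and all 10 lay below, from -13.15 for S100a8 to -3.83 for Mmp8. WT primary did not overlap with WT secondary for 8 of the 10 genes (40.1% of all genes had primary above secondary in WT). In KO the same held for 9 of the 10 with the lowest primary array well above background (24.9% of all genes), and Lcn2 had no order there.

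Shares of signal are given against the sum over all genes and unnamed probes, with 1 probe, that of highest mean, for each gene. The 10 genes together made up 0.351% and 0.840% of this sum on the WT primary arrays and 0.200% and 1.41% on the KO primary arrays. On the secondary arrays they made up 0.00283% and 0.0104% in WT, and 0.00558% and 0.00338% in KO. The lowest primary share was 33.7 times the highest secondary share in WT and 35.8 times in KO. The higher WT secondary share came with the Hp signal of 3158 on that array, out of 4119 for all 10 genes. The share is a ratio within each array and so does not depend on the scaling.

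**Figure D3:**
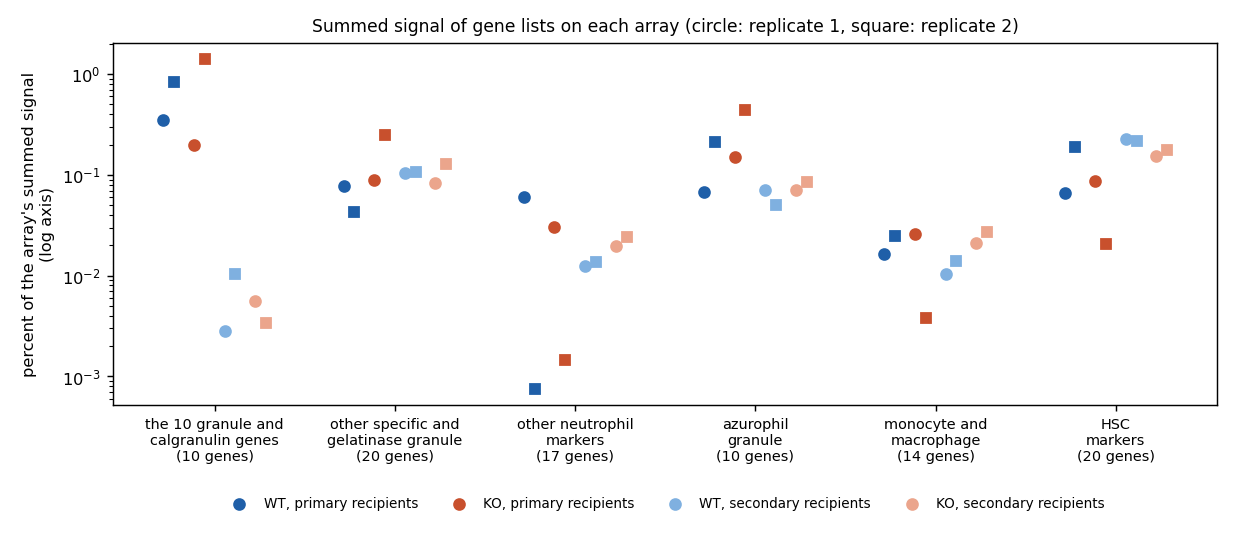
Percent of each array's signal, summed over 1 probe per gene (log axis), taken by the 10 genes and by 5 lists of other genes. Colours give the group, circles replicate 1 and squares replicate 2. The 10 genes took 0.200% to 1.41% on the primary and 0.00283% to 0.0104% on the secondary arrays. The shares of each other list overlap between primary and secondary recipients. For the other neutrophil markers and the HSC markers this overlap rests on the dim arrays.

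The primary arrays differed among themselves in the size of the signal. Between the brightest and dimmest primary array, the unscaled signal differed 6.57-fold for S100a8, 3.58-fold for Retnlg, 27.2-fold for Ngp, 34.9-fold for S100a9 and 67.1-fold for Camp, all without a loss of detection. It differed 884-fold for Mmp8, 460-fold for Ltf and 106-fold for Hp. For Lcn2 and Pglyrp1, each with a dim primary array not above background, it differed 16211-fold and 1960-fold. On scaled levels, a dim array was the brightest primary array for all 10 genes, KO primary replicate 2 for 7 of them and WT primary replicate 2 for 3. Brightness of the array moved with these levels, and its part in them was not tested. Without both dim arrays, the remaining 2 primary arrays lay above all secondary arrays for 9 of the 10 genes, as they did for 21.3% of all genes tested.

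Other genes of the neutrophil programme are given by list. Among 20 other genes listed for specific and gelatinase granules, 13 lay below the median gene in secondary recipients and 7 lay higher (median -0.84). None passed limma's adjusted threshold, and 4 had an unadjusted p under 0.05, all lower. Of all genes tested, 11.3% had an unadjusted p under 0.05 in the lower direction and 5.57% in the higher, which is the background for such counts in the lists below. The largest changes were higher ones: Cd63, a granule membrane protein, stood at 3.56 on the log2 scale (SE 1.28, limma adjusted p = 0.302), and Padi4, the enzyme that citrullinates histones, 3.18 (SE 1.17, limma adjusted p = 0.311). Both were on the list, but neither is a marker of specific or gelatinase granules, so their rise is not read as one of these granules. The largest lower changes were -2.30 for Chil3 and -1.96 for Mmp9, neither past the threshold. Cd63 had signals of 3948, 29.2, 11039 and 25.9 on the primary arrays in the order WT replicates 1 and 2, then KO replicates 1 and 2, and 15486 to 30123 on the secondary arrays, and was lowest on the dim arrays.

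Of 15 other neutrophil markers tested, 8 lay lower and 7 higher, with a median of -0.08 and none called by limma or under an unadjusted p of 0.05. Ifitm6, an interferon-induced membrane protein, had a log2 change of 2.83 and Wfdc21, a secreted protease inhibitor, one of -1.81, neither past the threshold. Csf3r, the receptor for the neutrophil growth factor G-CSF, was not tested, and no probe was matched for Ly6g, so both defining surface markers are not reported. Their summed share of signal was 0.000753% to 0.0605% on primary arrays and 0.0125% to 0.0239% on secondary arrays. These shares overlapped between recipients through the dim arrays, at 0.000753% (WT) and 0.00147% (KO). The other primary arrays, at 0.0605% (WT) and 0.0305% (KO), lay above every secondary array. The number of the list's 17 matched genes well above background was 5 to 15 on primary and 14 to 16 on secondary arrays.

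The azurophil genes split. Of 10, 4 lay lower and 6 higher with a median of 0.29, none called by limma and 2 lower at an unadjusted p under 0.05. Mpo stood at -4.59 (SE 1.55, limma adjusted p = 0.278), with signals of 8193, 41757, 26510 and 60649 on the primary arrays and 6811, 3337, 4856 and 4220 on the secondary arrays, in the order WT then KO. Every primary signal of Mpo exceeded every secondary signal, and it was well above background on all 8 arrays. Ctsc, the peptidase that activates the granule proteases, stood at 4.43 (SE 1.90, limma adjusted p = 0.330) and was above background on 3 arrays, all secondary. The summed azurophil share was 0.0672% to 0.445% on primary and 0.0508% to 0.0858% on secondary arrays.

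**Figure D4:**
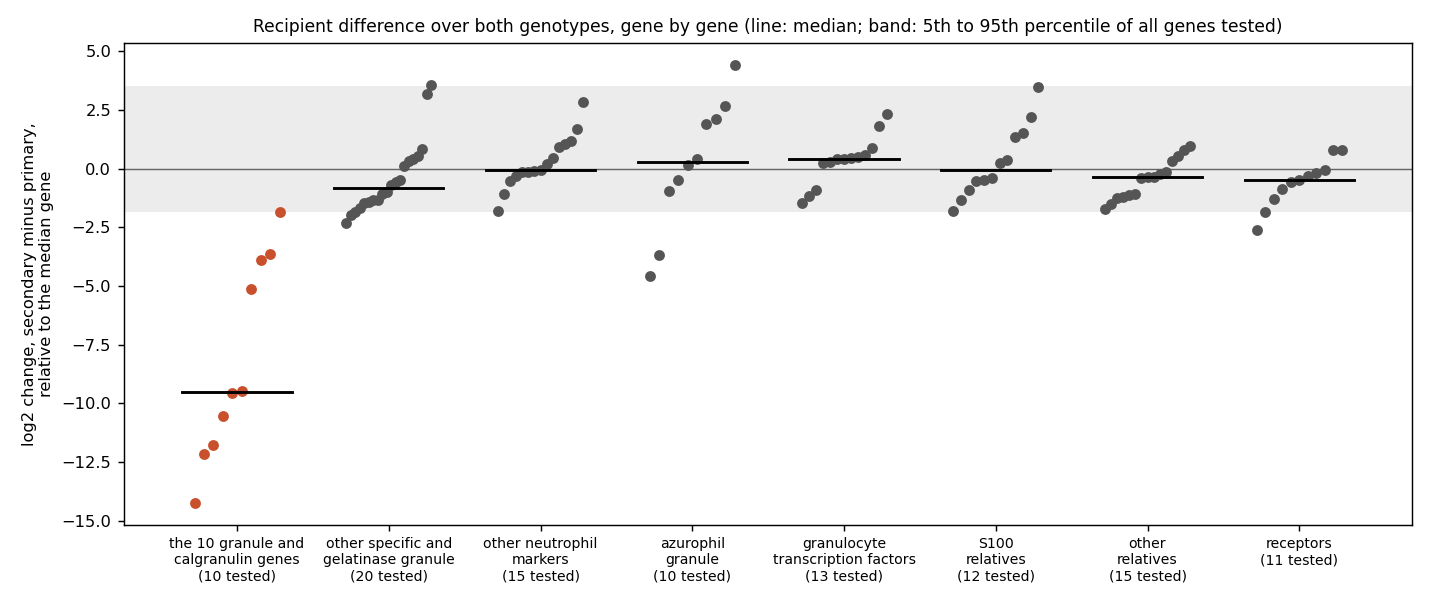
Secondary minus primary log2 change over both genotypes, relative to the median gene, for every tested gene of 8 lists, with a line at each list's median and a band from the 5th to the 95th percentile of all genes tested. The 10 granule and calgranulin genes have a median of -9.52, while the medians of the other 7 lists lie between -0.84 and 0.42.

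Of 13 transcription factors of the granulocyte lineage tested, 3 lay lower and 10 higher, with a median of 0.42 and none called by limma. The largest changes were in Gfi1, a repressor needed for neutrophil maturation, at 2.32, and Rara, the retinoic acid receptor alpha, at 1.80. Another 2 genes, both lower, had an unadjusted p under 0.05. Neither Gfi1 nor Rara was above background on the dim arrays. Cebpe, the factor tied most closely to specific granule genes, had no matched probe.

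Receptors for the proteins came next: 9 of 11 lay below the median gene, with a median of -0.47, none called by limma and 2 at an unadjusted p under 0.05. The largest changes were -2.62 for Slc22a17, a receptor for lipocalin-2, and -1.86 for Fpr2, a formyl peptide receptor that also binds the CRAMP peptide. For Slc22a17, 1 primary array stood apart: its signal was 96623 on WT primary replicate 2, against 117 to 4205 on the other primary arrays.

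Relatives of the 10 genes by family were also counted. Among 12 other S100 genes 6 lay lower and 6 higher, with a median of -0.08, and S100a1 (3.46) and S100a11 (2.17) had the largest changes. Neither passed limma's adjusted threshold (adjusted p = 0.297 and 0.671). S100a1 had signals of 61.1 to 387 on primary and 5235 to 20893 on secondary arrays. S100a11 was not above background on KO primary replicate 2, and its levels on the other primary arrays, 4.07, 10.23 and 3.64, lay on both sides of its secondary levels of 4.65 to 5.30. Among 15 relatives of the other members, such as resistin, matrix metalloproteinase and transferrin family genes, 11 lay lower with a median of -0.35. Meltf, melanotransferrin, had a log2 change of -1.73 and Pglyrp2 one of -1.53, and none was called by limma.

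The labelled cell type was checked against its markers. Of 20 HSC genes, 14 lay higher in secondary recipients and 6 lower, with a median of 1.71, none called by limma and 4 higher at an unadjusted p under 0.05. Meis1 (5.92, limma adjusted p = 0.125) and Hlf (5.66, limma adjusted p = 0.120), both transcription factors of stem cells, had the largest changes. The 6 lower markers were Kit (-1.56), Mycn (-1.36), Flt3 (-1.18), Thy1 (-1.02), Ly6a (-0.77) and Tek (-0.72). Hlf had signals of 3.4 to 206 on primary and 2160 to 6992 on secondary arrays, with no overlap. It was not well above background on the dim arrays. The summed HSC share was 0.0204% to 0.188% on primary and 0.154% to 0.230% on secondary arrays, and 14 to 20 of the 20 markers were above background on primary arrays. Monocyte and macrophage markers were at 0.00384% to 0.0257% on primary and 0.0103% to 0.0270% on secondary arrays, and 8 of 12 lay lower, 4 of them at an unadjusted p under 0.05. Of the other lineages, 9 of 10 B cell, 7 of 9 T and NK cell, 6 of 7 eosinophil, 4 of 5 mast cell and basophil, 6 of 10 erythroid and 3 of 10 megakaryocyte markers lay lower in secondary recipients. Their list medians were -0.68, -0.64, -0.58, -0.45, -0.30 and 0.65, with at most 1 gene of a list lower at an unadjusted p under 0.05 and none called by limma. Signal shares of these lists on primary and secondary arrays were 0.00133% to 0.0221% and 0.0144% to 0.0187% for B cells, 0.00168% to 0.114% and 0.00891% to 0.0258% for T and NK cells, and 0.00356% to 0.0197% and 0.00515% to 0.0159% for eosinophils. In each of these 3 the secondary range lay inside the primary one, with the low end on a dim array. For B cells the dim arrays had 0.00133% and 0.00194%. The other primary arrays, at 0.0207% and 0.0221%, lay above every secondary array. For T and NK cells the high end of 0.114% was also on a dim array, KO primary replicate 2. The other primary arrays, at 0.0223% and 0.0255%, lay within the secondary range. Whether other cells in the sorted samples had a part in the difference was not tested.

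The genotype comparisons ask whether these genes differed without E47. The genes were chosen for their recipient difference and not for a genotype difference, though with earlier results of these arrays known. In primary recipients, limma called 0 of the 10 genes and 0% of the 22898 tested, with 907 genes (3.96%) and 1 of the 10 at an unadjusted p under 0.05. KO and WT overlapped for all 10, where 26% of all genes did not overlap. The change of KO against WT ranged from -6.68 to 4.05, with a median of -0.37, 4 higher and 6 lower. Leaving out 1 array turned the sign of this median, to 2.98 without KO primary replicate 1 and 1.32 without WT primary replicate 2. Lcn2 had the lowest p: its scaled level was 6.37 ± 4.84 in WT and -0.03 ± 4.62 in KO (SD, n = 2 arrays), which is -6.68 relative to the median gene (SE 2.62, limma adjusted p = 0.995). The KO mean holds the dim array on which Lcn2 was not above background, and without both dim arrays the change was 0.15. Mmp8 was next, at -3.23 (SE 1.82, limma adjusted p = 0.995), with 5.65 ± 1.57 in WT and 2.70 ± 3.96 in KO (SD, n = 2 arrays). Without KO primary replicate 2 it was 0.14. Over the alternatives, adjusted p ranged from 0.139 to 0.999999 for Lcn2 and from 0.295 to 0.999999 for Mmp8.

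In secondary recipients limma again called 0 of the 10 genes and 0% of all genes tested, with 0 of the 10 and 1232 of all genes (5.38%) at an unadjusted p under 0.05. The change ranged from -2.59 for Hp to 4.44 for Retnlg, with a median of 0.11. Both KO arrays lay above both WT arrays, with the lower KO array well above background, for 3 genes, S100a9, Retnlg and Ngp, where 46.2% of all genes did not overlap by this measure in either direction. The count of 3 in 10 is thus no higher than the background. Without regard to the background mark S100a8 joins them (46.3% of all genes), but 1 of its KO and both of its WT arrays were not well above background, so it has no order. For the other 6 the genotypes overlapped. Retnlg stood at 4.44 (SE 2.47, limma adjusted p = 0.981), with levels of -7.24 ± 1.099 in WT and -2.34 ± 3.42 in KO (SD, n = 2 arrays). Neither WT array was above background for Retnlg. S100a8 stood at 2.42 (SE 2.75, limma adjusted p = 0.985), and KO replicate 1 alone was above background. Leaving out 1 KO secondary array moved Retnlg between 2.09 and 6.85 and S100a8 between 0.07 and 4.81. Adjusted p ranged from 0.535 to 0.999993 for Retnlg and from 0.649 to 0.999993 for S100a8 over the alternatives.

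**Figure D5:**
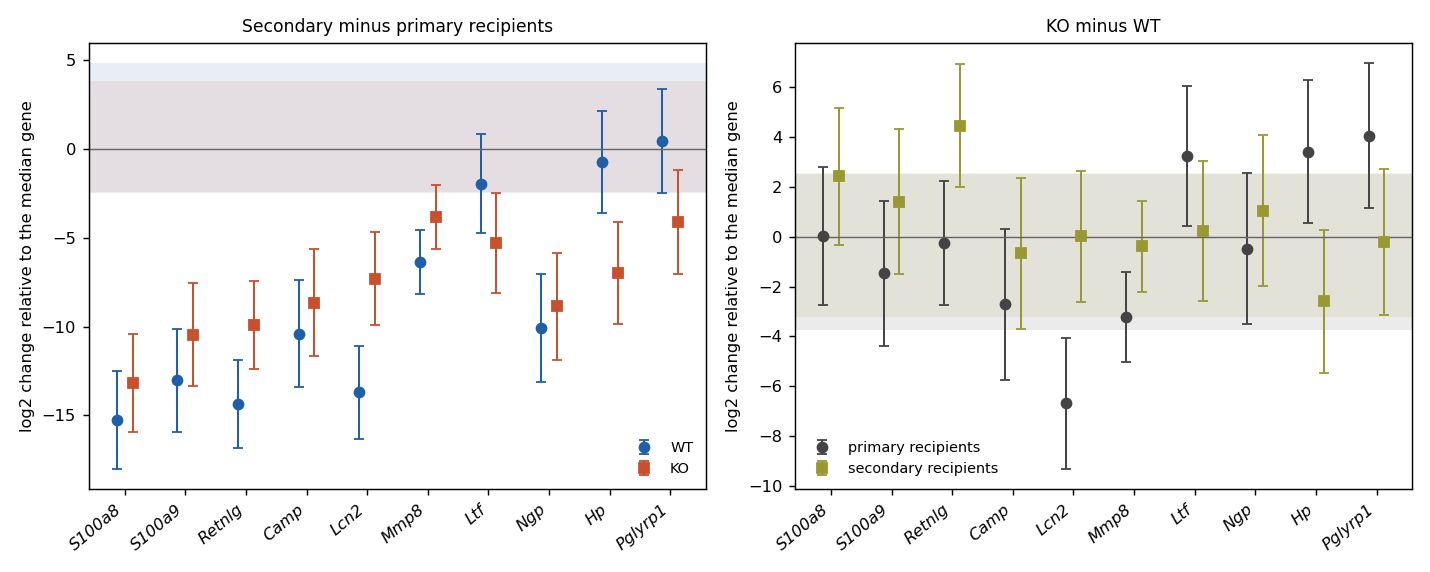
Log2 change relative to the median gene (points, with SE bars from limma) for the 10 genes, as secondary minus primary within WT and KO on the left and as KO minus WT within each recipient on the right, with bands from the 5th to the 95th percentile of all genes tested. On the left 7 of the 10 lie below both bands, and on the right the SE bars reach 0 for 5 of the 10 in primary and for 9 of the 10 in secondary recipients.

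Whether the genotype difference depended on the recipient was tested as an interaction, secondary minus primary in KO less the same in WT. Limma called 0 of the 10 genes and 0% of all genes, with 857 (3.74%) at an unadjusted p under 0.05. The largest change was in Lcn2, 6.59 (SE 3.70), followed by Hp, -6.09 (SE 4.06), both with limma adjusted p = 0.9999. Without one or the other KO primary array, Lcn2 ranged from 2.86 to 10.15 and Hp from -10.39 to -1.98. Over the alternatives the adjusted p ranged from 0.363 to 0.999992 for Lcn2 and from 0.562 to 0.999992 for Hp. The residual SD of the members was 2.16 to 3.94 log2 units (median 3.68), and the SE of a genotype change was 1.82 to 3.03.

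The genes most like the 10 in scaled level over the 8 arrays, by Pearson r with their mean level, were Proser2 (0.995), Tex43 (0.991), Kalrn (0.989), Aipl1 (0.986) and Alkbh7 (0.985), among 11454 genes well above background on at least 3 primary arrays. The 8 arrays fall into 2 recipient sets that also differ in brightness, so the r values are a description without a p. The mean level of the 10 genes had r = -0.90 with log2 of the 75th percentile, and these 5 had -0.86 to -0.93. The span of their own levels was 2.20 to 3.46 on the log2 scale where the mean of the 10 genes spanned 12.16. None of them had its primary signals above its secondary signals without scaling.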

How the data were processed

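Genotype, recipient and replicate number were taken from the sample titles. The deposited scanner files hold spot intensity on a linear scale, which the headers of these files say Agilent Feature Extraction 10.5.1.1 wrote, with the background already subtracted. The deposited series matrix holds a ratio of each intensity to the array's median, used as an alternative. Each array had 43379 non-control spots for 41174 probes of design 014868. After outlier spots were dropped and repeated spots averaged, all 8 arrays had values for 41048 probes, and 0 spots were saturated. Deposited intensities were turned into log2 values minus the array's 75th percentile. The number of arrays limits the precision.

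A gene was represented by its probe of highest mean. Groups were fitted together with limma 3.58.1 in R 4.3.3 (lmFit, eBayes, 4 residual degrees of freedom), with two-sided p-values adjusted by the Benjamini-Hochberg method over 22898 genes at a threshold of 0.05. P-values test the change before it is centred on the median gene. The script was tested on simulated data. Gene lists matched 201 of 208 entries, and the lists other than the neutrophil ones cover markers of HSC and of other blood cells.

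All 10 genes with every probe are named, the 2 of lowest p in each genotype comparison with full statistics, the 2 largest changes of each list described, and the genes nearest by Pearson r. The genes and lists were chosen with earlier results of these data known. Alternatives covered background correction, normalization, the scaling percentile, the filter, the probe rule, the series matrix, slide or replicate number as a block, and leaving out arrays; runs without scaling, counts of detected arrays only and fold bounds without 1 array were chosen after seeing the data.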

Additional observations from a re-analysis of the deposited data

How the results depend on the processing

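Of 326 recomputed changes, 8 had the opposite sign to the value with all arrays and main settings. Without both dim arrays, KO against WT in primary recipients was 0.15 for Lcn2 and 0.83 for Mmp8, and the Lcn2 interaction was -0.21, all opposite in sign. Leaving out 1 array at a time, Mmp8 ranged from -6.27 to 0.14, the latter without KO primary replicate 2. The cause was not tested. Genes called by limma between secondary and primary recipients numbered 139 after quantile normalization and 233 with the percentile taken over probes above background on all arrays, against 0. Of these, 6 and 3 were lower in secondary recipients relative to the median gene. Without WT primary replicate 1, 542 genes were called between KO and WT in primary recipients, and leaving out each other array in turn gave 0, so the range was 0 to 542. With no scaling between arrays, 5 of the 10 genes had all primary arrays above all secondary arrays (0.0306% of all genes). With that percentile 6 did (3.9% of all genes). Normexp background correction gave recipient changes of -9.20 for S100a8, -8.79 for Retnlg and -5.94 for Lcn2.

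Leaving out 1 array at a time, the median recipient change of the 10 genes was -11.02 to -7.51, against -6.26 without both dim arrays and -6.43 after normexp, and the number in that order 8 to 9. The median genotype change was -3.36 (without WT primary replicate 1) to 2.98 (without KO primary replicate 1) in primary recipients, with 1.32 without WT primary replicate 2, and 0.02 to 0.74 in secondary recipients. No setting called any of the 10 genes in a genotype comparison or the interaction. Pglyrp1 had a recipient change of 0.01 without WT primary replicate 1 and of 0.46 with slide as a block, which leaves the WT arrays to carry it.

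Replicate number as a block left the median recipient change at -9.52 and the genotype medians at -0.37 and 0.11, called 0 genes, and gave Lcn2 in primary recipients limma adjusted p = 0.990. Deviations of same-numbered arrays correlated at 0.149 between WT and KO primary and at -0.026 to 0.013 otherwise, so the numbers were not taken to pair the arrays. Probes not above background, as Lcn2 and S100a8 in secondary recipients, can at most bound a change and do not measure it.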
